A study of Homo sapiens with 12 samples.

Results

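A set of 51 DNA repair and damage signalling genes was examined in PANC-1 cells, a human pancreatic ductal carcinoma line. The genes were taken by symbol and sorted into 10 routes: 5 damage kinases and checkpoint genes, 5 genes of damaged chromatin signalling, 10 of homologous recombination, 6 of end resection and DNA unwinding, 6 of the Fanconi anaemia pathway, 7 of classical end joining, 1 of theta-mediated end joining, 7 of base excision and single-strand break repair, 2 of mismatch repair and 2 of nucleotide excision repair. All 51 were among the 12946 genes tested, out of 23284 symbols listed. The study compared a reporter-sorted population with its parental culture before and after radiation, and these genes bear on how each population is equipped to handle broken DNA.

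Both populations carried a retroviral reporter, the fluorescent protein ZsGreen fused to the degron of ornithine decarboxylase, and were selected with G418. The degron (−) cells were the infected culture, in which few cells were ZsGreen-positive. The degron (++) cells were the brightest cells of a culture enriched by repeated sorting, which the study takes as cells with low proteasome activity. There were 12 RNA libraries from 6 groups of 2: each population without irradiation (0 Gy) at 48 h, and with 4 Gy of gamma rays at 30 h and at 48 h. The labels do not say from which moment the hours were counted. The libraries taken here as degron (−) are called ZsGreen-negative in 1 label and d+ in another. Each population is 1 culture, and no label says that the 2 libraries of a group came from separate dishes, so p-values measure the spread between these libraries, which may be technical. In such bulk RNA, fewer cells of a type and less RNA per cell cannot be told apart.

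Ionizing radiation breaks both strands of DNA. The kinases ATM and ATR sense breaks and stalled forks, and mark the surrounding chromatin through the histone H2AX. A break is then either cut back and copied from the sister chromatid by homologous recombination, or rejoined directly by end joining. Damaged bases and single-strand nicks are handled by base excision repair, mismatches by the MSH and PMS proteins, and bulky lesions by nucleotide excision. Much of this work is done by changing existing proteins, through phosphorylation and ubiquitin, so that mRNA levels describe the supply of parts rather than the repair itself.

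The labelled cell type was checked first. The defining ductal epithelial markers were present, and 8 of 10 were tested. Of these, 7 were higher and 1 lower in degron (++) cells, in the test described below. Over all tested genes 86.7% passed that test, 42.1% higher and 44.6% lower. The 10 markers had summed FPKM of 7243 to 8435 in degron (++) against 4284 to 5195 in degron (−) libraries. Markers of blood, endothelial, acinar, islet and stromal cells, 13 genes, summed to at most 2.76 FPKM in any library. FPKM is the number of fragments scaled to exon length and library size, and no counts underlie the values used here. Values of a degron (++) library added up to 829654 to 916877 FPKM, those of a degron (−) library to 707273 to 763064, and the annotated small RNA gene MIR622 alone held 22.5% to 30.0% of it. The nearest library of each library, by correlation, came from its own population in all 12 cases.

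The repair genes spanned 2 orders of size in FPKM. The Ku subunit XRCC6, which threads onto broken ends, was the highest. It had a mean of 286 ± 6.07 FPKM in degron (++) and 224 ± 5.97 in degron (−) libraries (SD, n = 6 each, over the 3 conditions). Its partner XRCC5 followed with 182 ± 6.69 and 168 ± 6.52, and the histone gene H2AFX with 186 ± 7.08 and 142 ± 5.64. The lowest were LIG4, the ligase of end joining, with 2.70 ± 0.324 and 2.31 ± 0.278, the helicase BRIP1 with 2.68 ± 0.298 and 2.72 ± 0.336, and the helicase WRN with 4.97 ± 0.320 and 2.31 ± 0.202. The 51 genes together had 1582 to 1650 FPKM per degron (++) library and 1477 to 1545 per degron (−) library.

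Promoter sequences are shown for repair genes that share a short motif, because many genes of DNA synthesis and repair are transcribed with the cell cycle through E2F factors. Windows from 250 bases before to 50 after the RefSeq start (GRCh38.p14) were available for 45 of the 51 genes. The E2F-type words TTTCCCGC, TTTGGCGC and TTCCCGCC were searched on both strands, of which the first and the last can overlap. At least 1 of them stood in 14 of 45 windows (31.1%), against 7.75% of the windows of all 8983 tested genes with one and 4.61% of all 27305 windows. Below are 30-base stretches for 6 genes whose FPKM differed between the populations in every condition without overlap of libraries, and for 2 whose libraries overlapped (RAD54L, which passed the test in every condition, and FANCD2, which passed in none of the 3). The motif is in capitals, and each is written 5′ to 3′ on the strand of its gene.
LIG1, chr19:48170439-48170468, minus strand: cttcaccccttTTCCCGCCctcctcccatt
BLM, chr15:90717337-90717366, plus strand: ggcaagcttccGGCGGGAAgtgagccaggg
FANCC, chr9:95317737-95317766, minus strand: ttcgtcggaatTTTCCCGCgacgccgcggg
PARP2, chr14:20343564-20343593, plus strand: cgcgctgggtgTTCCCGCCtagtgacactg
XRCC6, chr22:41621315-41621344, plus strand: tgtccaagttggtcgcttccctGCGCCAAA
POLQ, chr3:121545957-121545986, minus strand: gtttgaagactGGCGGGAAgatgtccgcag
FANCD2, chr3:10026423-10026452, plus strand: gcgtcgggcctGGCGGGAAagtcgaaaact
RAD54L, chr1:46247628-46247657, plus strand: gcgcagcactaTTCCCGCCtcttccttggg

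Such words stood in genes that were higher in degron (++) cells in every condition without overlap, in a gene that was lower by that rule, and in genes that met neither. Among genes with a window, it was found in 5 of the 9 that were higher in all 3 conditions without overlap, in 1 of the 12 that were lower, and in 8 of the other 24. The CCAAT box was found in 4 of these 9 and in 9 of these 12, and in 46.7% of all repair gene windows against 36.9% of those of tested genes. The GC box GGGCGG stood in 80% against 71.2%, the ETS-type word ACTTCCG in 26.7% against 13.9%, and the CHR word TTTGAA in 15.6% against 9.25%. A match describes the letters of a window, and nothing was measured about the factors.

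Between degron (++) and degron (−) cells, repair genes moved apart in both directions rather than as a block. Averaged over the 3 conditions, 24 were higher and 19 lower in degron (++) cells with adjusted p under 0.05, and 8 did not pass (limma on log2(FPKM + 1), Benjamini-Hochberg over all tested genes). Over all tested genes, 86.7% passed, 42.1% higher and 44.6% lower, so that the count of repair genes (84.3%) was close to that of any genes. Most tested genes thus differed between the populations, and the result lies in which repair genes were higher and which were lower. The median log2 fold change of the 51 was 0.07, against −0.02 over all tested genes, and the values ran from −1.34 for ERCC1 to 0.85 for BRCA1. By condition, 15 were higher and 13 lower at 0 Gy, where 77.7% of all genes passed, 37.6% higher and 40.2% lower. The counts were 23 and 16 at 4 Gy and 30 h (79.1% of all genes, 38.3% higher and 40.8% lower), and 19 and 14 at 4 Gy and 48 h (76.7%, 37.1% and 39.6%). At 0 Gy the share of repair genes that passed was 54.9%.

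With each library rescaled to the same sum (TPM), the median of all genes moved to −0.24 and the split to 10 higher and 29 lower, against 28 and 16 after quantile normalization and 30 and 14 after median centring. The sums used for TPM include MIR622, which held 28.6% to 30.0% of a degron (++) library and 22.5% to 27.1% of a degron (−) library. Its part in the shift after TPM rescaling was not tested. For the mean of the 3 conditions, 10 repair genes passed as higher and 14 as lower under each of these scalings, and a repair gene that passed but for which this was not so is marked as such below. A stricter count took genes that passed in each of the 3 conditions and whose 6 libraries of one population did not overlap the 6 of the other. It held 12 repair genes that were higher (23.5%, against 32.1% of all genes) and 12 that were lower (23.5%, against 34.9%).

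**Figure D1:**
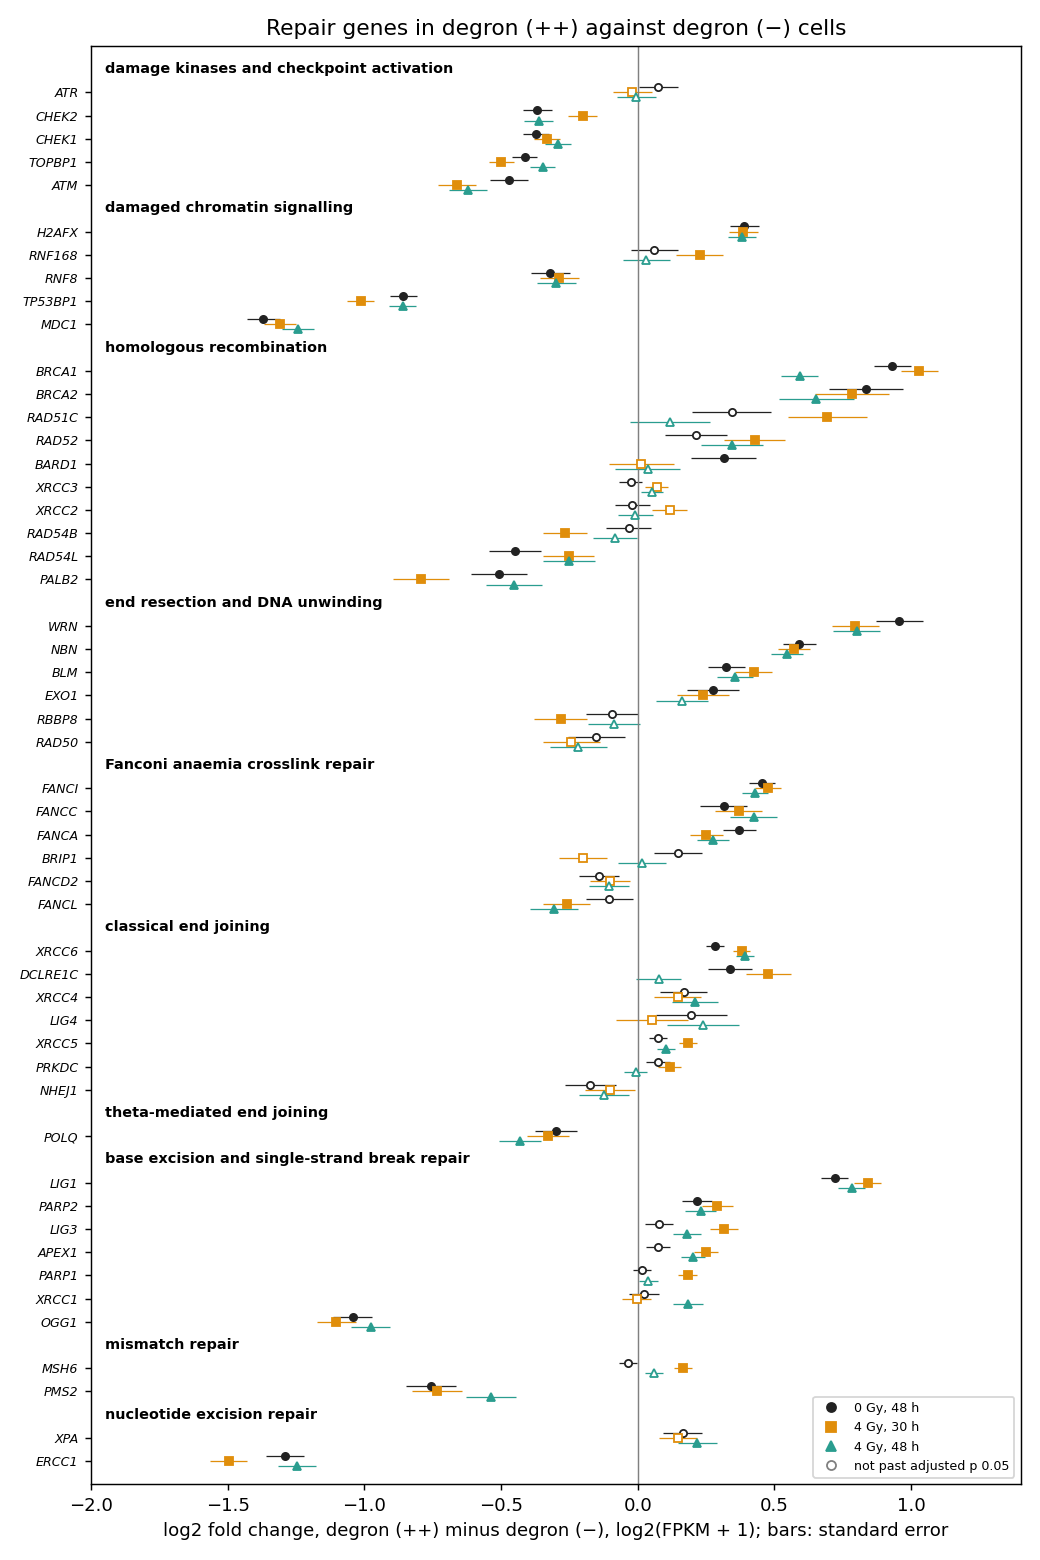
Log2 fold change of 51 repair genes in degron (++) minus degron (−) cells, on the log2(FPKM + 1) scale, by route and by condition (symbols), with standard errors as bars and open symbols for adjusted p of 0.05 or more. The 3 conditions lie close together for most genes, from −1.34 on average for ERCC1 to 0.85 for BRCA1.

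Of the 5 damage kinases and checkpoint genes, 4 were lower in degron (++) cells (80%, where 86.7% of all tested genes passed, 44.6% lower). ATM, the kinase that answers double-strand breaks, had 4.99 to 6.66 FPKM (median 5.80) in degron (++) and 8.62 to 9.77 (median 9.30) in degron (−) libraries, without overlap (log2 fold change −0.58, SE 0.040, adjusted p = 5.84e-07). TOPBP1, which switches on ATR, had 26.4 to 29.3 FPKM (median 27.7) against 34.3 to 40.0 (median 37.8), a log2 fold change of −0.42. The effector kinases CHEK1 and CHEK2, which stop the cell cycle, differed by −0.33 and −0.31. ATR itself had a mean of 9.21 ± 0.654 FPKM in degron (++) and 9.09 ± 0.577 in degron (−) libraries (SD, n = 6 each; log2 fold change 0.02, adjusted p = 0.716).

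Within damaged chromatin signalling, the histone and its readers differed in opposite directions. H2AFX, which encodes the H2AX histone that ATM phosphorylates, had 173 to 191 FPKM (median 189) in degron (++) and 131 to 147 (median 144) in degron (−) libraries (log2 fold change 0.39, adjusted p = 1.5e-06). MDC1, the scaffold that binds phosphorylated H2AX, was at 6.53 to 6.86 FPKM (median 6.61) against 16.9 to 19.8 (median 17.8), a log2 fold change of −1.31 (SE 0.034, adjusted p = 6.32e-10). Every degron (++) library was thus below every degron (−) library for the scaffold and above for the histone. TP53BP1, which shields ends from being cut back, had 12.97 to 14.5 FPKM (median 13.4) against 24.8 to 28.3 (median 26.4), with a log2 fold change of −0.91. The ubiquitin ligase RNF8, which MDC1 recruits, was lower by −0.30 on the log2 scale. RNF168, which extends the ubiquitin chains, did not pass (0.11, adjusted p = 0.0723).

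Homologous recombination genes split within known complexes. BRCA1, which promotes resection and loading of the recombinase, had 14.3 and 13.8 FPKM at 0 Gy, 14.0 and 12.8 at 4 Gy and 30 h, and 12.7 and 11.7 at 4 Gy and 48 h in degron (++) libraries. The degron (−) libraries had 6.75 and 7.01, 5.78 and 6.28, and 7.45 and 8.06 in the same order. All degron (++) values were above all degron (−) values (log2 fold change 0.85, SE 0.039, adjusted p = 2.84e-08). BRCA2, which delivers the recombinase to single-stranded DNA, had 4.001 to 5.69 FPKM (median 5.04) against 2.25 to 2.91 (median 2.52), a log2 fold change of 0.76 (adjusted p = 1.17e-05). PALB2, the protein that bridges BRCA1 to BRCA2, went the other way, with 4.03 to 5.30 FPKM (median 4.72) against 6.71 to 8.58 (median 7.55), a log2 fold change of −0.58 (adjusted p = 9.61e-06).

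Of the other 7 recombination genes, RAD54L, a motor that remodels the recombinase filament, was lower (−0.32), with libraries that overlapped. The recombinase paralog RAD51C (0.38) and the annealing protein RAD52 (0.33) were higher and RAD54B (−0.13) lower as deposited, but none of these calls held under every scaling. BARD1, the RING partner of BRCA1, and the paralogs XRCC2 and XRCC3 had mean log2 fold changes of 0.12, 0.03 and 0.03 and did not pass.

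Among the genes that cut back and unwind ends, NBN, the subunit that recruits ATM to breaks, had 28.7 to 33.8 FPKM (median 32.5) in degron (++) and 20.4 to 22.02 (median 20.8) in degron (−) libraries (log2 fold change 0.57, adjusted p = 1.88e-07). RAD50, the coiled-coil ATPase of the same complex, was at 17.3 ± 1.71 against 20.0 ± 1.85 FPKM (SD, n = 6 each; −0.20, adjusted p = 0.0107), a call that did not hold under every scaling. The RecQ helicase WRN had 4.65 to 5.48 FPKM (median 4.82) against 2.11 to 2.56 (median 2.31), a log2 fold change of 0.85. The related helicase BLM was higher by 0.37. The nuclease EXO1 (0.23) and the resection factor RBBP8 (−0.16) passed as deposited, but EXO1 turned sign after TPM rescaling (−0.02) and RBBP8 lost its call under another scaling.

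In the Fanconi anaemia pathway, which removes crosslinks between strands, FANCI had 42.6 to 49.6 FPKM (median 47.4) against 32.6 to 35.7 (median 33.8), a log2 fold change of 0.45 (adjusted p = 1.86e-07). FANCC, a subunit of the core ubiquitin ligase, had 8.65 to 10.1 FPKM (median 9.09) against 6.38 to 7.60 (median 6.93), a log2 fold change of 0.37. By condition, after TPM rescaling, FANCC did not pass in any of the 3 and FANCI not at 4 Gy and 48 h (adjusted p = 0.0838, limma). FANCL, the catalytic subunit of that ligase, was lower (−0.22). FANCA (0.30) lost its call after TPM rescaling (adjusted p = 0.0564). FANCD2 (−0.12), the clamp partner of FANCI, passed as deposited and after TPM rescaling, but not after quantile normalization or median centring (adjusted p = 0.483 and 0.351). BRIP1, a helicase that binds BRCA1, did not differ past the threshold (−0.01, adjusted p = 0.821).

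**Figure D2:**
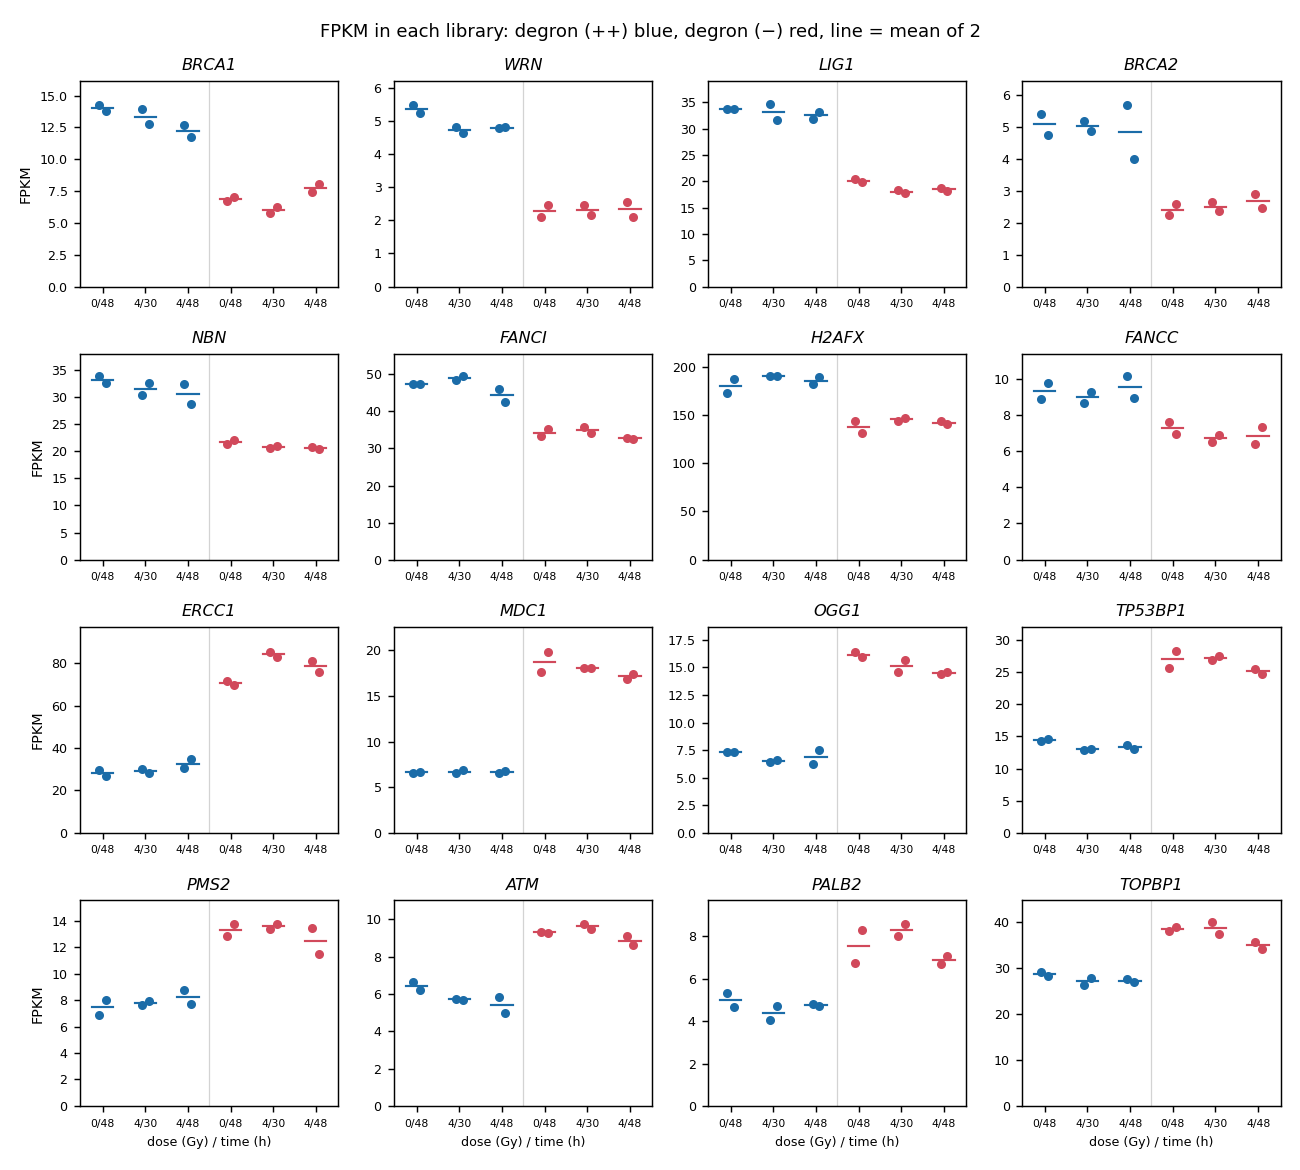
FPKM of 16 repair genes in each of the 12 libraries, with dose and hours on the x axis, degron (++) in blue, degron (−) in red and a line at the mean of 2 libraries. The genes were chosen, for the largest differences, among those in which all 6 libraries of one population lie above all 6 of the other. The upper 8 genes are higher and the lower 8 lower in degron (++) cells.

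Of the 7 classical end joining genes, 5 were higher and 1 lower as deposited (85.7%, against 86.7% of all genes), with log2 fold changes from −0.13 to 0.35. XRCC6 had 278 to 295 FPKM (median 286) in degron (++) and 217 to 233 (median 224) in degron (−) libraries, a log2 fold change of 0.35 (adjusted p = 7.31e-08). The values for XRCC5, PRKDC, which encodes the kinase that Ku recruits, and the scaffold XRCC4 were 0.12, 0.06 and 0.17, and these 3 turned negative after TPM rescaling (−0.13, −0.19 and −0.06). The nuclease DCLRE1C (Artemis, 0.30) and NHEJ1 (−0.13) passed as deposited but not under every scaling, and LIG4 did not pass (0.16, adjusted p = 0.0698). POLQ, the polymerase of the alternative, microhomology-based route, was lower: 4.65 to 5.62 FPKM (median 5.19) against 6.04 to 7.47 (median 7.01), a log2 fold change of −0.35.

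Base excision genes held both a large rise and a large fall. LIG1, the replicative ligase that also seals repair patches, had 31.6 to 34.7 FPKM (median 33.5) in degron (++) and 17.8 to 20.5 (median 18.5) in degron (−) libraries (log2 fold change 0.78, SE 0.028, adjusted p = 5.41e-09). OGG1, the glycosylase that removes oxidized guanine, had 6.28 to 7.48 FPKM (median 6.98) against 14.4 to 16.4 (median 15.1), a log2 fold change of −1.04 (SE 0.041, adjusted p = 1.07e-08). The glycosylase that starts the pathway and the ligase that ends it thus went in opposite directions, without overlap of libraries in either. LIG3 (0.19), the endonuclease APEX1 (0.17) and the break sensor PARP1 (0.08) were higher as deposited and turned negative after TPM rescaling (−0.04, −0.08 and −0.17). PARP2 (0.25) lost its call after that rescaling, and the scaffold XRCC1 did not pass (0.07, adjusted p = 0.0671).

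In nucleotide excision, 1 gene had the largest difference of the 51 on the log2(FPKM + 1) scale, averaged over the conditions. ERCC1, which forms with a partner nuclease the cut on the 5′ side of a bulky lesion, had 29.7 and 26.9 FPKM at 0 Gy, 30.0 and 28.4 at 4 Gy and 30 h, and 30.6 and 34.7 at 4 Gy and 48 h in degron (++) libraries. The degron (−) libraries had 71.5 and 69.6, 85.2 and 83.0, and 81.2 and 76.1 in the same order. The highest degron (++) library was below the lowest degron (−) library (log2 fold change −1.34, SE 0.039, adjusted p = 1.36e-09). As a ratio of mean FPKM the gene was 2.59-fold lower, against 2.70-fold for MDC1, and at 0 Gy the log2 fold change of MDC1 was the larger (−1.37 against −1.29). XPA, which verifies the lesion, was at 0.18 and turned sign after TPM rescaling (−0.05). In mismatch repair, PMS2 had 6.90 to 8.79 FPKM (median 7.83) against 11.5 to 13.8 (median 13.4), a log2 fold change of −0.68, whereas MSH6 was at 0.06, and at −0.19 after TPM rescaling. PMS2 has near-identical copies in the genome, and how reads were shared among them is not given.

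Several of these genes share exonic bases with a gene on the opposite strand, and whether strand was used in counting is not stated. By GENCODE v29, TP53BP1 shares 3067 bases with TUBGCP4 (log2 fold change 0.29), ERCC1 shares 1593 with CD3EAP (−0.00), and OGG1 shares 254 with CAMK1 (−2.29). MDC1 shares 701 bases with the antisense gene MDC1-AS1, which was not tested. LIG3 shares 3754 bases with RFFL (0.43), and FANCA shares 1402 with ZNF276 (0.44). In all, 11 repair genes had a tested partner on the opposite strand, which had the same sign as the repair gene in 9 cases and the opposite sign in 2 (TP53BP1 and MSH6). The value of CD3EAP, counted with the 9, was near 0. How often signs agree over all genes with such a partner was not counted. On the same strand, RAD50 shares 7525 bases with AC116366.3, RAD54B shares 2891 with FSBP, and NHEJ1 shares 1308 with AC068946.1. These partners were not among the tested genes. The part of such overlaps in the differences was not tested.

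Ratios of partner genes within a library are not changed by a factor common to the library, as in TPM rescaling, although quantile normalization changes them, and 14 pairs were compared over the 6 libraries of each population (exact two-sided permutation test, smallest p possible 0.00216, Benjamini-Hochberg over the 14). These pairs were chosen with results of these data known. A total of 10 ratios did not overlap between the populations, each with the smallest p possible (adjusted p = 0.00303), and 12 passed. Of all pairs of tested genes above 0 in every library, 72.2% did not overlap either, and of all pairs of the 51 genes 61.1%, so that the count of 10 of 14 was close to that of any pairs. The ratio of BRCA2 to PALB2 was 1.07 ± 0.152 in degron (++) and 0.339 ± 0.0528 in degron (−) libraries (SD, n = 6 each). BRCA1 to BARD1 was 2.32 ± 0.305 against 1.34 ± 0.219. BRCA1 to TP53BP1, proteins with opposed roles in the choice to cut back an end, was 0.969 ± 0.0630 against 0.262 ± 0.0416. In degron (++) cells the FPKM of BRCA1 thus came close to that of TP53BP1.

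The scaffold MDC1 stood to its histone H2AFX as 0.0359 ± 0.00122 in degron (++) and 0.127 ± 0.0121 in degron (−) libraries. NBN to RAD50 was 1.84 ± 0.0851 against 1.06 ± 0.0782, FANCI to its clamp partner FANCD2 was 6.61 ± 0.366 against 4.37 ± 0.232, and LIG1 to LIG3 was 2.49 ± 0.108 against 1.63 ± 0.0557. Lower in degron (++) cells were RNF8 to RNF168 (0.629 ± 0.0633 against 0.892 ± 0.0506) and CHEK1 to ATR (2.48 ± 0.176 against 3.18 ± 0.128). The Ku ratio XRCC6 to XRCC5 moved least among the 10, at 1.57 ± 0.0861 against 1.33 ± 0.0283. CHEK2 to ATM and PARP1 to PARP2 overlapped but passed (adjusted p = 0.00505 for each, exact permutation test). LIG3 to XRCC1 (adjusted p = 0.0793) and LIG4 to XRCC4 (adjusted p = 0.777) did not pass in the exact permutation test.

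**Figure D3:**
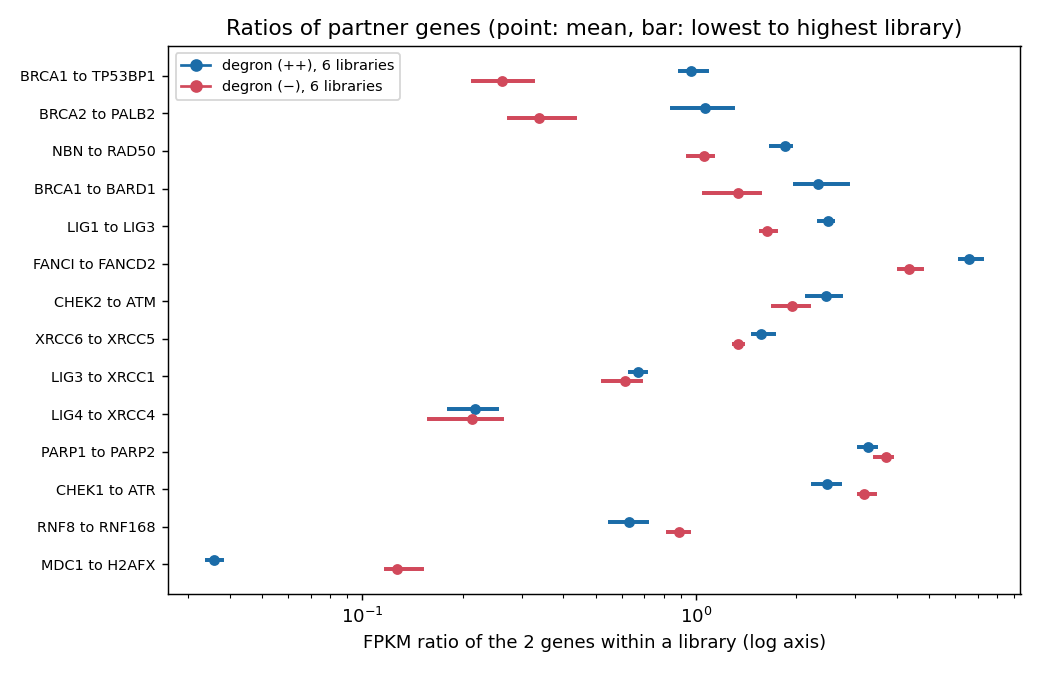
Ratio of the FPKM of 2 partner genes within a library, on a log axis, for 14 pairs, with points at the mean and bars from the lowest to the highest of 6 libraries per population. The bars do not overlap for 10 pairs, with the widest gap between bars for MDC1 to H2AFX (at most 0.0380 against at least 0.118) and none for LIG4 to XRCC4.

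The other repair genes on a wider list, 97 tested, held 37 that were higher and 42 lower in degron (++) cells. This was 81.4%, against 86.7% of all tested genes, 42.1% higher and 44.6% lower. The largest falls were in HLTF, a fork remodeler, with a log2 fold change of −1.81, the meiotic MutS homolog MSH5 with −1.35 and the alkyl base glycosylase MPG with −1.29. The largest rises were in SMC5, of a cohesin-like complex, with 1.42, the topoisomerase TOP3A, which acts with BLM, with 1.29 and the lesion-recognition partner RAD23B with 1.21. The 6 degron (++) libraries had 25.4 to 29.3 FPKM of MPG, and the 6 degron (−) libraries 63.6 to 69.0.

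Other programs that could carry repair genes were summed as measured. Counts are for the mean of the 3 conditions, where 86.7% of all tested genes passed, 42.1% higher and 44.6% lower. S phase genes, 35 in number, held 15 that were higher and 11 lower, and together had 2026 to 2234 FPKM per degron (++) library and 1974 to 2134 per degron (−) library. G2/M genes, 32 in number, held 8 and 17, with sums of 2752 to 3101 and 2754 to 2927. With all conditions together, both sums overlapped between the populations. Within conditions, the S phase sum was higher in degron (++) libraries at 4 Gy and 30 h (2234 and 2233 against 2114 and 2134 FPKM). It was also higher at 4 Gy and 48 h (2138 and 2127 against 1974 and 2052), and overlapped at 0 Gy. The G2/M sum was higher at 4 Gy and 30 h (3049 and 3101 against 2881 and 2812) and overlapped in the other conditions. Of 26 tested p53 target genes, 7 were higher and 12 lower, and their sum was 353 to 399 FPKM per degron (++) library and 429 to 475 per degron (−) library. At 0 Gy, most of the gap between the p53 target sums lay in CDKN1A, whose FPKM are given at the end. The part of these programs, and that of the ductal markers that were higher in degron (++) cells, in the differences of the repair genes was not tested.

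The place of a gene on its chromosome was compared with its difference, using only gene order in RefSeq (5 tested genes on either side). Across the 51 genes, the mean log2 fold change of a gene and the median of its neighbours had a Pearson r of 0.476, against 0.36 over all 12602 genes placed, as a description, since neighbours share windows and libraries. The sign was the same for 38 of 51 (74.5%), against 65.2% of all genes. The medians around BRCA1 (0.81), BRCA2 (0.82) and WRN (1.03) lay near or beyond the values of these genes, as did those around ATM (−0.64), PALB2 (−0.57) and TOPBP1 (−0.71) on the lower side. ERCC1 (−1.34), OGG1 (−1.04), TP53BP1 (−0.91), PMS2 (−0.68) and LIG1 (0.78) stood apart from medians of −0.14, −0.07, 0.07, −0.04 and 0.06. H2AFX (0.39) was higher among neighbours that were lower (−0.50), and XRCC1 (0.07) differed little among neighbours at 1.34. Copy number was not measured.

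Irradiation moved none of these genes past the threshold. Between 4 Gy and 0 Gy at 48 h, 0 of 51 passed in degron (++) cells (1.82% of all genes passed), 0 in degron (−) cells (4.73%) and 0 for the mean of both (7.2%), with limma. At an unadjusted p under 0.05 the numbers were 7, 6 and 14 of 51, against 2282, 2704 and 3103 of the 12946 tested genes. The log2 fold changes ran from −0.24 for BARD1 to 0.20 for ERCC1 in degron (++) cells, and from −0.21 for XRCC1 to 0.22 for RAD51C in degron (−) cells. All 51 intervals (95%) lay within 1.5-fold in either direction in each population. For each repair gene taken alone, a difference of 1.5-fold or more on the log2(FPKM + 1) scale was thus outside the interval, and smaller differences lay within it for some genes.

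The median of the 51 was −0.06 in degron (++) and −0.07 in degron (−) cells, against 0.003 and 0.007 over all tested genes. Of the 51 values, 35 and 37 were negative, and the share of negative values over all tested genes was not counted. Closest to the threshold were XRCC5 for the mean of both populations (−0.09, adjusted p = 0.0506) and XRCC1 in degron (−) cells (−0.21, adjusted p = 0.0605). Among p53 target genes, GADD45A, a stress-induced growth arrest gene, rose in degron (++) cells from 15.7 and 18.1 FPKM at 0 Gy to 28.2 and 26.5 at 4 Gy (log2 fold change 0.67, adjusted p = 0.0140), and in degron (−) cells from 28.1 and 29.9 to 42.0 and 38.4 (0.46, adjusted p = 0.0223). CDKN1A, the cell cycle inhibitor p21, rose in degron (++) cells (0.47, adjusted p = 0.0413), and TNFRSF10B in degron (−) cells (0.26, adjusted p = 0.00602). The irradiated libraries of GADD45A lay above the unirradiated ones in both populations. It was 1 of 2 p53 target genes, of 26 tested, that passed in each population (7.69%). The shares of all genes that passed, 1.82% in degron (++) and 4.73% in degron (−) cells, were low, and 0 of 51 repair genes lies close to them. With 1 of the 4 libraries compared left out, the adjusted p of GADD45A lay between 0.0299 and 0.0978 in degron (++) cells, and between 0.0696 and 0.103 in degron (−) cells. In degron (++) cells the call of CDKN1A was lost with any 1 of the 4 left out (0.0676 to 0.207). That of TNFRSF10B held (0.0307 to 0.0374) but was lost after TPM rescaling (0.0605), as were those of CDKN1A (0.0789) and of GADD45A in degron (−) cells (0.0555). Fitted on the 4 compared libraries alone, no call of these 3 genes held (adjusted p from 0.143 to 0.260). The dose difference did not differ between the populations past the threshold for any repair gene (0 of 51, where 0.0772% of all genes passed). At an unadjusted p under 0.05 (limma) there were 3, against 1758 of the 12946 tested genes. BRCA1 had the largest value (−0.34, adjusted p = 0.189).

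**Figure D4:**
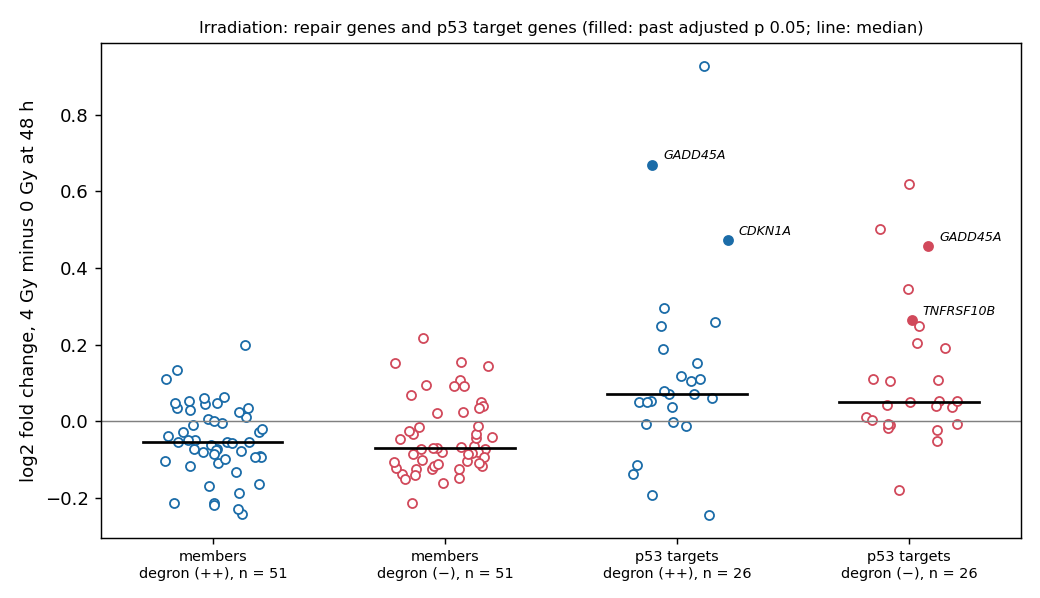
Log2 fold change between 4 Gy and 0 Gy at 48 h for 51 repair genes (members) and 26 p53 target genes in each population, with filled points for adjusted p under 0.05 and a line at the median. No repair gene is filled, and GADD45A is filled in both populations.

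Between 30 h and 48 h at 4 Gy, 1 repair gene was lower at 48 h in degron (++) cells (1.21% of all genes passed, 0.548% lower). In degron (−) cells 2 were higher and 1 lower at 48 h (7.18% of all genes passed, 6.01% higher and 1.17% lower). These comparisons share the 48 h libraries with those of dose. There was no unirradiated library at 30 h, so a change after 4 Gy and a change with time in culture cannot be told apart. PARP1, which senses single-strand breaks, fell in degron (++) cells from 98.3 and 96.9 FPKM at 30 h to 83.9 and 88.0 at 48 h (log2 fold change −0.18, SE 0.034, adjusted p = 0.0465). In degron (−) cells it had 84.9 and 86.9, then 82.3 and 85.0 FPKM (−0.04, adjusted p = 0.565). The unirradiated degron (++) libraries at 48 h, with 88.7 and 89.0 FPKM, lay near the 48 h values, and the 30 h libraries stood above both. For the mean of both populations PARP1 was the single gene past the threshold (−0.11, adjusted p = 0.0334), where 6.58% of all genes passed, 1.65% lower. The call in degron (++) cells was lost with any 1 of the 4 libraries compared left out (adjusted p from 0.102 to 0.185). It was also lost with no filter, after quantile normalization or TPM rescaling, without a trend, with a replicate block (0.0619) and with only the libraries compared (0.301). That for the mean was lost with 7 of the 8 libraries left out in turn (0.0411 to 0.104).

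In degron (−) cells, BRCA1 rose from 5.78 and 6.28 FPKM at 30 h to 7.45 and 8.06 at 48 h (log2 fold change 0.32, adjusted p = 0.0270), and the nuclease gene DCLRE1C from 2.90 and 2.45 to 3.76 and 3.42 (0.32, adjusted p = 0.0492). XRCC1, the scaffold of single-strand break repair, fell from 21.2 and 19.0 to 17.2 and 16.9 (−0.22, adjusted p = 0.0406). In degron (++) cells, BRCA1 had 14.0 and 12.8 FPKM at 30 h and 12.7 and 11.7 at 48 h (−0.12, adjusted p = 0.434). The time difference of BRCA1 was different between the populations by −0.44 on the log2 scale (SE 0.095, adjusted p = 0.0470), the single repair gene past the threshold (3.23% of all genes, 2.72% with a negative value). Its excess in degron (++) cells was 1.03 on the log2 scale at 30 h and 0.59 at 48 h. This call was lost with any 1 of the 8 libraries at 4 Gy left out, when the adjusted p was 0.0596 to 0.164. With 1 of the 4 degron (−) libraries at 4 Gy left out, the call of DCLRE1C was lost in every case (0.0646 to 0.225), and those of XRCC1 (0.0228 to 0.212) and BRCA1 (0.0468 to 0.183) in all but 1. The summed S phase genes of degron (−) libraries were 2114 and 2134 FPKM at 30 h and 1974 and 2052 at 48 h, and those of degron (++) libraries 2234 and 2233, then 2138 and 2127. The part of cell cycle position in the time differences was not tested.

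**Figure D5:**
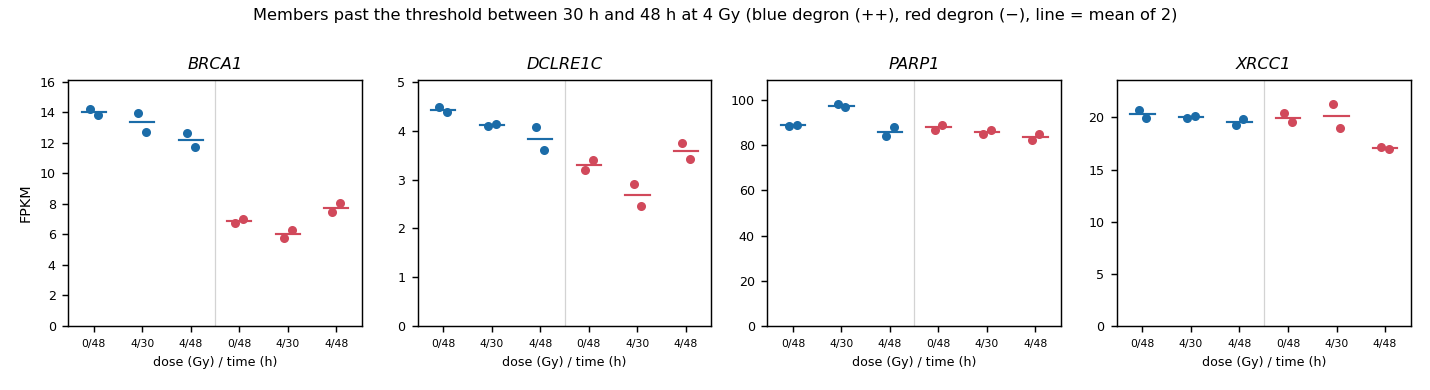
FPKM of the 4 repair genes that passed the threshold between 30 h and 48 h at 4 Gy, in all 12 libraries by dose and hours, with degron (++) in blue, degron (−) in red and a line at the mean of 2. In degron (−) cells both BRCA1 libraries at 48 h (7.45 and 8.06) lie above those at 30 h (5.78 and 6.28), and PARP1 is highest in degron (++) cells at 30 h.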

How the data were processed

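The authors deposited FPKM per gene symbol for each of 12 libraries, made with a stranded mRNA kit. The submitters' processing notes list TopHat2 2.1.1, Bowtie2 2.2.8, SAMtools 0.1.18, Cuffdiff 2.2.1 and hg19, with no settings, and the annotation and the strand setting are not given in the sources used here. FPKM hold no counts, so the reads behind a value are unknown, and no counting interval is given. From the steps between low values, the relative depth of the libraries was 0.856 to 1.17.

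Values were tested as log2(FPKM + 1) with limma 3.58.1 (lmFit, eBayes with trend) in R 4.3.3, for genes whose FPKM reached 1 in 2 or more libraries, with 6 group means over 12 libraries and Benjamini-Hochberg adjusted p under 0.05. Fold changes on this scale understate those of low genes. Fits were tested on simulated data. Python 3.11.15, pandas 2.3.3, scipy 1.17.1 and matplotlib 3.10.9 were also used. Promoter windows and gene order came from RefSeq (GRCh38.p14), and exon overlaps from GENCODE v29.

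Full values were given for the 8 largest differences in each direction among genes past the threshold in all 3 conditions without overlap, for genes past it in a dose or time comparison, and for the 3 highest and 3 lowest genes. The members, lists and pairs were chosen with earlier results of these data known. Alternatives were a pseudocount of 0.1, a filter at FPKM 5 or none, TPM rescaling (to 1000000), quantile normalization, eBayes without trend, a replicate block, fits on only the libraries compared and leaving out each library. Median centring and ratios within conditions were added after the data were seen. No 2 libraries held identical values. The values of 1 gene among the other repair genes are not reported here.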

Additional observations from a re-analysis of the deposited data

Results flagged for a closer look

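BRCA1 differed between the populations in how it changed from 30 h to 48 h at 4 Gy, by a test of that difference: the value was −0.44 on the log2 scale, with 2 of 2 degron (−) libraries higher at 48 h than either at 30 h, and both degron (++) libraries at 48 h lower than either at 30 h (limma, SE 0.095, adjusted p = 0.0470). It is 1 of 51 repair genes tested for this difference. Over the alternatives its adjusted p ran from 0.0379 to 0.164.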

How the results depend on the processing

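The counts of repair genes that differed between the populations stayed within 1.5 times of the reported ones under every alternative run, although the split moved: after TPM rescaling, 8 were higher and 22 lower at 0 Gy, 9 and 23 at 4 Gy and 30 h, and 6 and 24 at 4 Gy and 48 h. For the mean of the 3 conditions, the 16 genes given in full, which were chosen for large differences without overlap, kept direction and call. Of all repair genes that passed, 9 turned sign under at least 1 of the scalings. For dose, no gene passed in degron (−) cells as reported and 1 did after median centring; for the mean of both populations, 1 passed with a filter at FPKM 5, after quantile normalization or after median centring, and 0 to 1 with a library left out. For time in degron (++) cells, 0 passed with no filter, TPM rescaling, quantile normalization, no trend in eBayes, the replicate block or only the libraries compared, and 0 to 0 with any library left out. In degron (−) cells, 1 passed with no filter, 0 after TPM rescaling, 0 with only the libraries compared, and 0 to 1 with a library left out. For the mean over both, 2 passed after quantile normalization, 3 after median centring, 0 after TPM rescaling, without trend or with only the libraries compared, and 0 to 2 with a library left out. For the difference in time between populations, 0 passed with no filter, quantile normalization, TPM rescaling, without trend, the block, only the libraries compared, median centring, or any library left out (0 to 0). The cause was not tested.

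The labels do not say whether the replicate numbers pair the samples. Deviations of libraries with the same number correlated weakly, at −0.038 to 0.122 over 15 pairs of groups, over 0.1 in 2. This cannot settle how the samples were made. With the replicate block, 42, 29, 38 and 32 genes passed between the populations for the mean and for the 3 conditions. The fit on only the libraries compared was not run for the mean of 3 conditions, which uses all of them. The time calls rest on groups of 2 near the threshold, and depth is unknown, so differences of small size in low genes cannot be judged.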

Other observations

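Of 97 other repair genes, 5 were higher (5.15%, against 6.01% of all genes) at 48 h than at 30 h in degron (−) cells at 4 Gy: SMC5 (log2 fold change 0.33), the end joining polymerase POLM (0.32), BABAM1 (0.26), TOP3A (0.25) and RAD23B (0.18), with adjusted p of 0.0339, 0.0247, 0.0108, 0.0113 and 0.0152 (limma). TOP3A had 23.8 and 23.7 FPKM at 30 h and 27.5 and 29.4 at 48 h in degron (−) libraries, against 69.6 and 66.4, then 60.9 and 64.1 in degron (++) libraries. The time difference of TOP3A differed between the populations by −0.37 (adjusted p = 0.0197), and that of RAD23B by −0.24 (adjusted p = 0.0329). With dose in degron (−) cells, 1 of the 97 was higher and 1 lower (2.06%, against 4.73% of all genes). The higher one was POLB, the gap-filling polymerase of base excision (0.32, adjusted p = 0.0204).

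CDKN1A had 5.82 and 6.80 FPKM in degron (++) libraries at 0 Gy and 48 h, and 64.1 and 59.7 in degron (−) libraries, a log2 fold change over the 3 conditions of −2.95 (adjusted p = 5.3e-11). In the same libraries GADD45A differed by −0.66. The S phase gene RRM2, which encodes a subunit of ribonucleotide reductase, differed by −1.20, and the replication factors RFC3 and CDC6 by 1.05 and 1.03.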
